A study of Mus musculus with 6 samples.

Results

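The genes described here are 10 genes of spermatogonia and of entry into meiosis, chosen by name: Gfra1, Ret, Zbtb16, Id4, Etv5 and Nanos3 of undifferentiated spermatogonia, Kit, Sohlh1 and Dmrtb1 of differentiating spermatogonia, and Stra8 of meiotic entry. A probe was found for 8 of the 10, in 12 probes, and 7 genes were bright enough to be tested, among 18976 genes tested in all. Zbtb16 and Sohlh1 were not analysed here.

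RNA of whole testis was measured in 3 Prss37 knockout mice and in 3 wild-type mice, all male, on C57BL/6 and 6 to 8 weeks old, on 1-colour Agilent arrays with 1 mouse each. Prss37 encodes a trypsin-family protein of the testis, and its deleted part is not named in the labels. One label field of the knockout samples names Prss55 in place of Prss37, and samples were grouped by title. The study asked which testis genes differ in level when Prss37 is missing.

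Spermatogenesis is kept going by a small pool of undifferentiated spermatogonia. Sertoli cells and other somatic cells release GDNF, which binds the receptor pair made by Gfra1 and Ret on these cells and favours self-renewal. Retinoic acid then drives the move to KIT-positive differentiating spermatogonia and, later, switches on Stra8 at the start of meiosis. Because these cells are a minority in an adult testis, whole-tissue RNA also carries much spermatocyte and spermatid RNA. In such bulk RNA, fewer cells of a type and less RNA per cell cannot be told apart.

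Stra8 (a member) and Cyp26a1 (a retinoic acid gene outside the 10) had the largest differences among Stra8 and the tested retinoic acid genes, both lower. Of the 17 retinoic acid genes tested, 9 lay above 0 and 8 below. The promoters of Stra8 and Cyp26a1, chosen after these values were seen, are shown with the half-sites that retinoic acid receptors are known to bind. No promoter of another member, or of a retinoic acid gene above 0, is shown beside them. A link between the half-sites and the differences was not tested. Of the 10 genes, 8 had an entry in the RefSeq promoter table. Both sequences are the 250 bases before the transcript start on the plus strand, from RefSeq on GRCm38.p6, at chr6:34920698-34920947 and chr19:37697558-37697807. Capitals mark AGGTCA or AGTTCA on either strand.
Stra8 promoter: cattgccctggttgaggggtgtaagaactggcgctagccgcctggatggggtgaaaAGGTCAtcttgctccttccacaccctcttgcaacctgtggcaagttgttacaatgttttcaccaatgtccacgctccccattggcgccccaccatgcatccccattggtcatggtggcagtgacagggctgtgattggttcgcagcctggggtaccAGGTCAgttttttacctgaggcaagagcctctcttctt
Cyp26a1 promoter: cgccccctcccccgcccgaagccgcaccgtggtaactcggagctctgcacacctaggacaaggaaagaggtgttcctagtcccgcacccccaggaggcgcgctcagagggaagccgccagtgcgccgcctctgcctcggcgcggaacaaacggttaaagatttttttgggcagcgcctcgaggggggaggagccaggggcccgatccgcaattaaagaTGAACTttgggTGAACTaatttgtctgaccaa
The Stra8 stretch holds AGGTCA at 2 places on the plus strand, 194 to 189 and 38 to 33 bases before the start, and no AGTTCA. The Cyp26a1 stretch holds AGTTCA at 2 places on the minus strand, 32 to 27 and 21 to 16 bases before the start, where it reads TGAACT. Those 2 copies together make up the longer motif AGTTCANNNNNAGTTCA, which therefore overlaps both of them. Among 32851 promoters of the same length, AGGTCA was present on either strand in 14.0%, at 2 or more places in 1.36%, AGTTCA in 11.8%, at 2 or more places in 0.980%, and the longer motif in 0.0213%. The longer motif was the only repeat searched, without repeats of AGGTCA, mixed repeats or other spacings. Its share therefore does not measure how rare such repeats are. These matches describe the letters and not binding in these testes.

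On each array 69.2% to 71.4% of spots were well above background and 0 were saturated. Replicates 1 and 2 of both genotypes were on slide 1, and replicate 3 of both on slide 2. On the second principal component, with 23.0% of the variance, knockout replicate 3 (-8.41) and wild-type replicate 3 (-20.5) lay apart from the slide 1 arrays (-0.13 to 12.1). For the tissue label, all 12 round spermatid markers and 17 of 18 Sertoli cell markers were bright enough to be tested. The Prss37 probe (chromosome 6, 40464853 to 40464912, mm9) had signals of 67592, 73824 and 71562 in knockout testes, against 116135, 107860 and 124390 in wild-type testes, a log2 difference of -0.71 (SE 0.07, limma adjusted p = 0.0243). Without knowing the deleted part, this probe is no check of the genotypes by itself. Its call was lost on leaving out any knockout array or wild-type replicate 1 (adjusted p 0.0721 to 0.132). Signals are processed intensities in arbitrary units, scaled to the 75th percentile of the arrays. A level is given for a probe only against the same probe on other arrays. A log2 difference is knockout minus wild type, and a gene was called at an adjusted p under 0.05.

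None of the 7 tested members passed that test, where 2.46% of all tested genes did (1.21% higher and 1.25% lower). Stra8 was the closest, with an adjusted p of 0.0584, and it was the 1 member under 0.1, where 9.83% of all genes lay (4.78% lower in knockout, counted over all genes). At an unadjusted p under 0.05 there were 2 members, Stra8 and Nanos3, both lower, where 23.9% of all genes lay under that p and 12% were also lower. In 5 of the 7 members the log2 difference was under 0.1 in size, which held for 53.5% of all genes. The median difference of the 7 was 0.01 on the log2 scale, beside -0.0024 over all genes, with 4 members above 0 and 3 below. The arrays of the genotypes did not overlap for 2 of the 7 (28.6%), both lower in knockout, where 31.6% of all genes did not overlap and 16% were so with knockout lower. The share that did not overlap was near the background. Without wild-type replicate 3 the log2 differences were -0.44 for Stra8 (adjusted p = 0.0790), -0.27 for Nanos3 (0.209), and between -0.07 and 0.14 for the other 5 members.

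Markers of the somatic cells of the tubule and interstitium had list medians of 0.02 (17 Sertoli cell markers, 6 of them below 0) and 0.02 (9 Leydig cell markers, 4 below 0). The summed signal of 17 Sertoli cell markers was 333960 to 340782 in knockout testes, against 319611 to 326408 in wild-type testes, without overlap. Without its leading gene Clu it was 240074 to 244944 in knockout testes, against 225939 to 236926 in wild-type testes. That of 9 Leydig cell markers was 105480 to 109449 in knockout testes, against 84542 to 99849 in wild-type testes. Ptgds alone carried this gap, and the sum of the other 8 was 54397 to 60379 in knockout testes, against 52203 to 60895 in wild-type testes, with overlap. The part of these markers in the members' values was not tested.

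**Figure D1:**
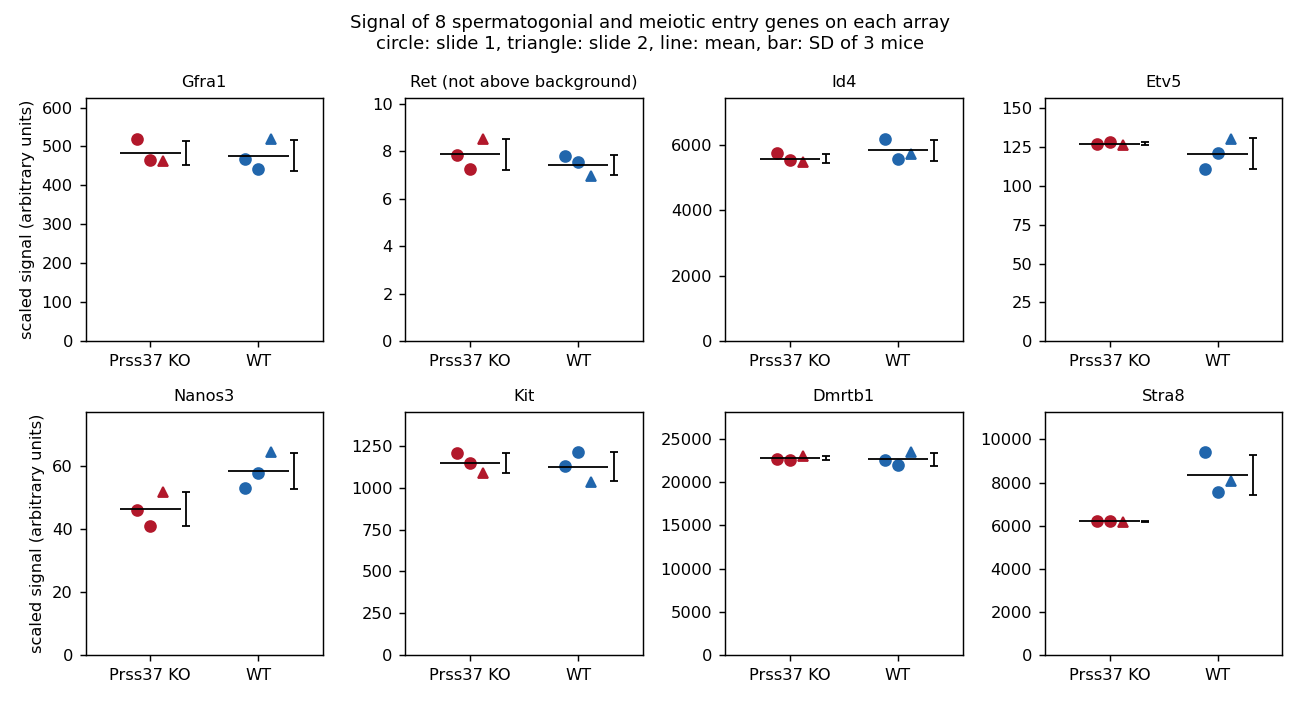
Scaled signal in arbitrary units (linear axes from 0) of the brightest probe of 8 members on each of the 6 arrays, with knockout in red and wild type in blue, circles for slide 1 and triangles for slide 2. Lines are means and bars are SD of 3 mice. The Stra8 points are 6185 to 6228 in knockout and 7581 to 9396 in wild type and do not overlap, and the points of Gfra1, Id4, Etv5, Kit and Dmrtb1 do.

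Stra8 encodes the protein that retinoic acid induces in germ cells and that is needed for the start of meiosis. Its probe (chromosome 6, 34889231 to 34889290, mm9) had a signal of 6196, 6228 and 6185 in knockout testes, against 9396, 7581 and 8059 in wild-type testes. All knockout arrays lay below all wild-type arrays. The group means were 6203 ± 22.3 and 8345 ± 941 (SD, n = 3 each, knockout and wild type). The log2 difference was -0.42 (SE 0.08, 95% interval -0.62 to -0.22), which is 1.34-fold lower in knockout testes, with an unadjusted limma p of 0.00216 and an adjusted p of 0.0584. It did not pass the test. Its rank by p was 703 among the 18976 genes, where 4.8% of all genes differed by at least as much in either direction and 2.51% were lower by at least as much. Within slide 1 the difference was -0.44 and within slide 2 -0.38.

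The Stra8 call depended on the processing. It passed with normexp background correction (adjusted p = 0.0287), with a variance trend and robust fitting (0.0227), with array weights (0.0368) and without wild-type replicate 2 (0.0459), and the adjusted p ranged up to 0.20 over the alternatives on all samples or on slide 1. Under every alternative run the difference stayed below 0, from -0.49 without wild-type replicate 2 to -0.33 without wild-type replicate 1, the array with the highest wild-type signal. The probe lies 5.58 Mb from that of Prss37. Of the 165 tested genes within 10 Mb of the Prss37 probe, 4 were called (2.42%), 1 higher and 3 lower, near the share over all genes. These counts include Prss37 itself, which is 1 of the 3 called lower.

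**Figure D2:**
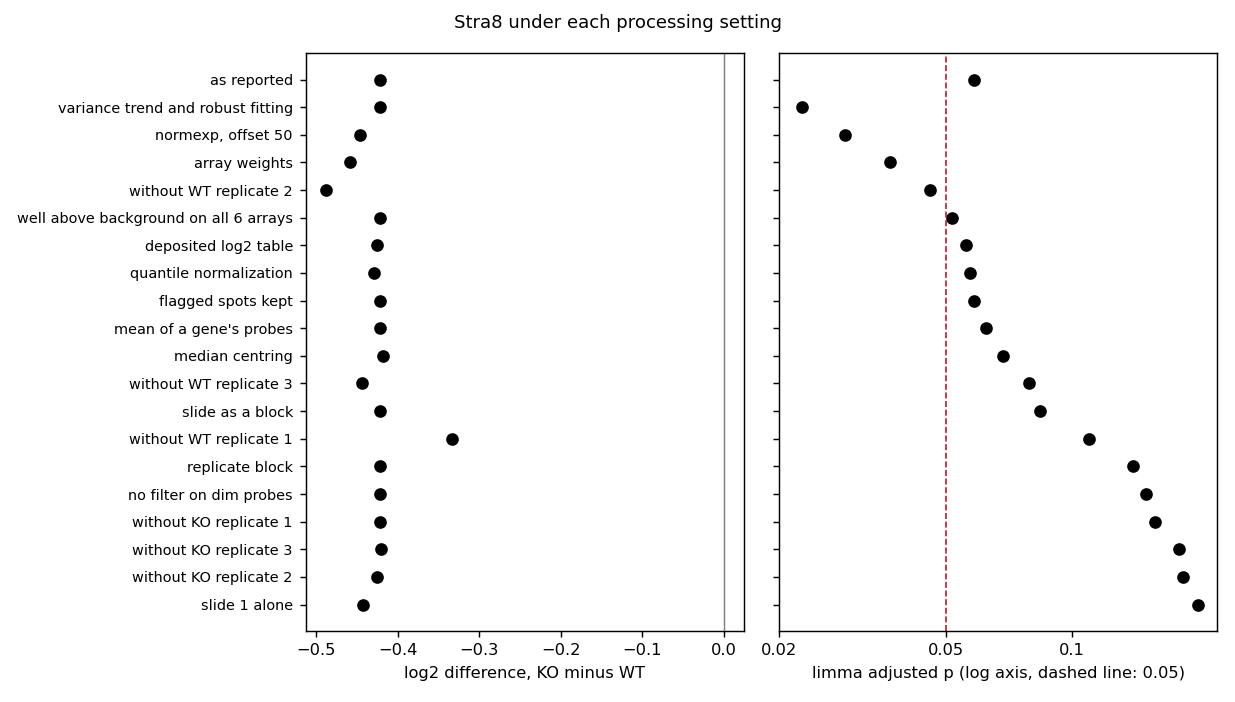
Stra8 log2 difference (left) and limma adjusted p on a log axis (right) under the reported setting and each alternative. The difference is between -0.49 and -0.33 throughout, and the adjusted p is under 0.05 in 4 alternatives.

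The genes most like Stra8 over the 6 arrays, by the mean absolute difference of log2 values centred on each gene's mean, were En2 (0.0249), 4931408D14Rik (0.0348) and Nsmf (0.0400). Their log2 differences were -0.42, -0.36 and -0.41, and of the 3 only Nsmf was called (adjusted p = 0.0417). They lie on chromosomes 5, 19 and 2, and Stra8 on chromosome 6. The measure was computed on the same arrays as the differences.

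Nanos3, an RNA-binding zinc finger protein of undifferentiated spermatogonia, was measured by a dim probe (chromosome 8, 86700210 to 86700269, mm9), whose 60 bases read as follows in the scanner output, shown because no other probe measured it.
Nanos3 probe: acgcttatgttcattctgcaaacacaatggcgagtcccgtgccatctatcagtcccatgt
Its signal was 46.1, 41.0 and 51.8 in knockout testes, against 53.2, 57.8 and 64.4 in wild-type testes, without overlap. The log2 difference was -0.34 (SE 0.11, 95% interval -0.60 to -0.08), 1.27-fold lower in knockout testes, with an unadjusted p of 0.0197 and an adjusted p of 0.136, so it did not pass the test. With normexp and an offset of 50 the difference was -0.09.

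GFRA1 is the GDNF co-receptor and RET the signalling receptor. The brighter Gfra1 probe (chromosome 19) had a signal of 519, 467 and 464 in knockout testes, against 467, 441 and 520 in wild-type testes, which overlapped. The log2 difference was 0.02 (SE 0.08, 95% interval -0.17 to 0.21, adjusted p = 0.899). The interval spans a change of -11.2% to 16.0%. Its sequence is shown because the 60 bases span 767 bases of the genome, from 58313006 to 58313772 (mm9), so it is not one unbroken stretch there.
Gfra1 probe: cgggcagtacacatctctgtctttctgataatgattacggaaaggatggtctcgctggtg
The other probe, at position 2742 of the transcript, had a difference of 0.08 (adjusted p over probes = 0.431). None of the 6 arrays had Ret well above background. Its signals were 7.85, 7.25 and 8.54 in knockout testes, against 7.79, 7.57 and 6.97 in wild-type testes, so it has no fold.

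Id4, which marks the most stem-like spermatogonia in mice, had a signal of 5745, 5537 and 5468 in knockout testes, against 6191, 5581 and 5729 in wild-type testes. The genotypes overlapped and the log2 difference was -0.06 (SE 0.05, 95% interval -0.19 to 0.07, adjusted p = 0.531). Etv5 encodes an ETS transcription factor needed for self-renewal. Its brighter probe had a signal of 127, 129 and 126 in knockout testes, against 111, 121 and 130 in wild-type testes, and a log2 difference of 0.08 (SE 0.07, 95% interval -0.08 to 0.24, adjusted p = 0.522).

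The 2 Etv5 probes did not give the same difference. The dimmer one (position 2771) had a signal of 41.1, 58.1 and 50.3 in knockout testes, against 37.5, 39.3 and 21.0 in wild-type testes. It was well above background on 3 knockout arrays and on 1 wild-type array. It thus entered the fit through the knockout arrays alone, and its log2 difference of 0.65 (0.35 within slide 1 and 1.26 within slide 2) is a description without a test.

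**Figure D3:**
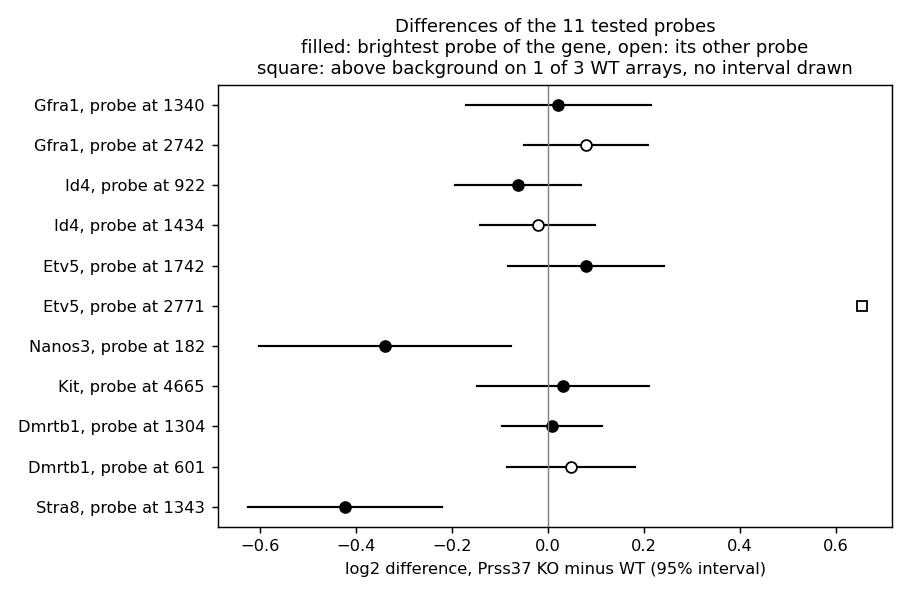
Log2 difference (knockout minus wild type) with its 95% interval for each of the 11 tested probes. Filled points are the brightest probe of each gene and open points the other probe. The square is the dim Etv5 probe (0.65), above background on 1 wild-type array and drawn without an interval. The unadjusted intervals of Stra8 (-0.42) and Nanos3 (-0.34) leave 0 out.

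Kit is the receptor for KIT ligand and marks differentiating spermatogonia. Its probe (chromosome 5, 76052287 to 76052346, mm9), printed at 10 spots per array, had a signal of 1212, 1153 and 1090 in knockout testes, against 1132, 1213 and 1037 in wild-type testes, with overlap. The spots of an array varied by 2.61% to 4.04% (CV). The log2 difference was 0.03 (SE 0.07, 95% interval -0.15 to 0.21, adjusted p = 0.831), which spans -9.66% to 15.7%. Dmrtb1, which guides the passage from spermatogonia to meiosis in mice, had a signal of 22719, 22544 and 23027 in knockout testes, against 22545, 21963 and 23432 in wild-type testes, with a log2 difference of 0.01 (SE 0.04, 95% interval -0.09 to 0.11, adjusted p = 0.931). The interval spans -6.30% to 7.90%. Its sign turned under normexp, quantile normalization and the deposited log2 table.

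Around these members, 5 lists of the pathway were described. With the cell type lists, 11 in all, 157 genes were tested. Of these, 2 were called higher and 1 lower (1.91%, beside 2.46% of all genes). Of 28 other listed genes of undifferentiated spermatogonia, 26 had a probe and 21 were tested. Of the 21, 0 were called, 16 lay below 0 (50.7% of all genes did) and the median was -0.10, or -0.03 with normexp. Uchl1, a ubiquitin hydrolase of spermatogonia, had a difference of -0.19 (adjusted p = 0.111), and Lhx1, a transcription factor that GDNF induces, -0.25 (0.127). The summed signal of the 21 was 23760 to 24453 in knockout testes, against 25630 to 27629 in wild-type testes, without overlap. The mean gap (knockout minus wild type) was -2591.1, of which Uchl1 gave -2222.4. The sum of the other 20 was 8658 to 9045 in knockout testes, against 9147 to 9330 in wild-type testes. At an unadjusted limma p under 0.05 there were 5 of the 21 (23.8%, beside 23.9% of all genes). Of the 5, 4 lay below 0 and 1 above, Itga6 (0.19, adjusted p = 0.157).

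All 12 other listed genes of differentiating spermatogonia were tested. Of these, 0 were called and 2 (16.7%, beside 23.9% of all genes) had an unadjusted limma p under 0.05, with a median of 0.07. The summed signal of the 12 was higher in knockout testes, 83925 to 86377, against 73827 to 81998 in wild-type testes, and without Tex101 the other 11 overlapped. The 2 genes were the cell cycle gene Ccnd2 (-0.31, adjusted p = 0.127) and Dmrtc2 (0.12, 0.159). Of 26 niche signals and receptors 23 were tested, of which 0 were called. At an unadjusted p under 0.05 there were 6 (26.1%, beside 23.9% of all genes), 4 below 0 and 2 above. The 4 were the GDNF-family ligand gene Artn (-0.53, adjusted p = 0.0585), Fgfr3 (-0.28, 0.0602), Csf1 (-0.24, 0.0856) and Src (-0.20, 0.110). The 2 above 0 were Cxcl12 (0.22, 0.117) and Csf1r (0.16, 0.152). Artn passed with normexp (-0.31, adjusted p = 0.0433), a robustly fitted variance trend (0.0433), array weights (0.0421) and without wild-type replicate 2 (0.0431), and its adjusted p ran up to 0.187 over the alternatives. The median of the 23 was -0.04, or -0.01 with normexp.

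Of 22 listed retinoic acid genes 17 were tested, of which 1 was called lower and 0 higher. Over all genes 1.25% were called lower and 1.21% higher. Cyp26a1, which breaks retinoic acid down, had a signal of 165, 175 and 172 in knockout testes, against 282, 292 and 322 in wild-type testes, with no overlap. It fell to 0.572 of the wild-type level, a log2 difference of -0.81 (SE 0.06, 95% interval -0.96 to -0.66, adjusted p = 0.0173), -0.76 within slide 1 and -0.90 within slide 2. The call was lost on leaving out knockout replicate 2, knockout replicate 3 or wild-type replicate 1 (adjusted p 0.0658 to 0.116), on slide 1 alone (0.0757), with dim probes kept (0.0778) and under the replicate block (0.0967). The adjusted p over its alternatives on all samples or on slide 1 was 0.00595 to 0.0967. At an unadjusted p under 0.05 there were 4 of the 17 (23.5%, beside 23.9% of all genes), 2 above 0 and 2 below. The 2 above 0 were Dhrs3 (0.27, adjusted p = 0.0753) and Lrat (0.29, 0.103). The median of the 17 was 0.01, and its sign turned with normexp (-0.05), quantile normalization and the deposited log2 table.

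**Figure D4:**
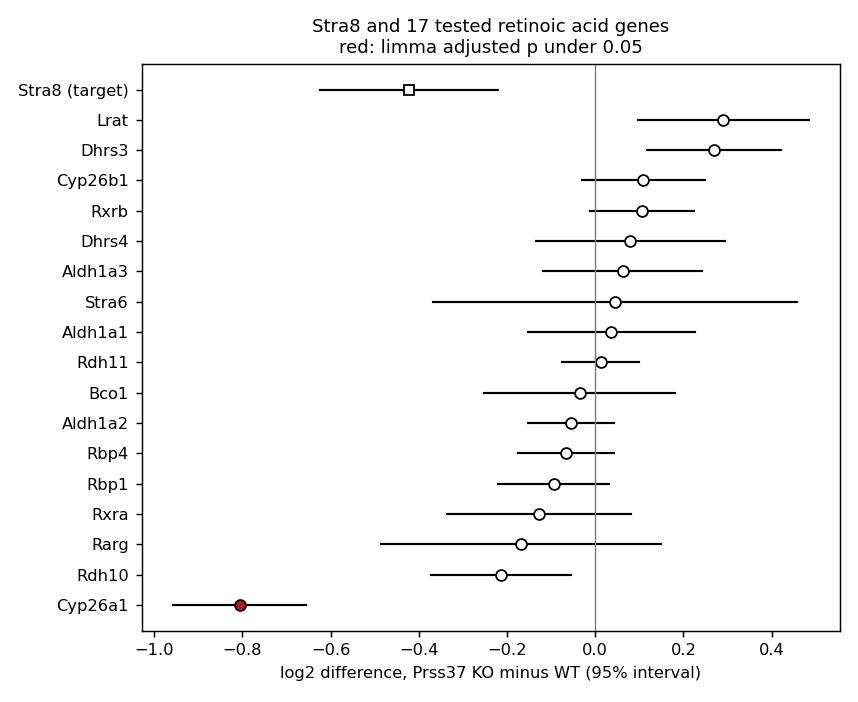
Log2 difference (knockout minus wild type) with its 95% interval for Stra8 and 17 retinoic acid genes. Red marks the called gene. Cyp26a1 stands at -0.81, and the other 16 genes were not called.

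Of 27 listed genes of meiotic entry and early prophase 24 were tested, of which 1 was called higher and 0 lower. The shares called over all genes were 1.21% higher and 1.25% lower. The median of the 24 was 0.04 (0.02 after quantile normalization, -0.02 for averaged probes). At an unadjusted p under 0.05 there were 9 of the 24 (37.5%, beside 23.9% of all genes), 5 above 0 and 4 below. The summed signal was 435315 to 450133 in knockout testes, against 422060 to 435230 in wild-type testes, and without Rec8 the sums overlapped. Rec8, the meiotic cohesin subunit, had a signal of 57688, 58038 and 56649 in knockout testes, against 42621, 47632 and 45590 in wild-type testes. It was 1.27-fold higher (log2 difference 0.35, SE 0.05, adjusted p = 0.0423), and the genotypes did not overlap. The call was lost in 11 alternatives, among them the slide as a block (adjusted p = 0.0643) and every left-out array but wild-type replicate 2 (0.0365), with an adjusted p of 0.0128 to 0.166 over the alternatives on all samples or on slide 1.

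**Figure D5:**
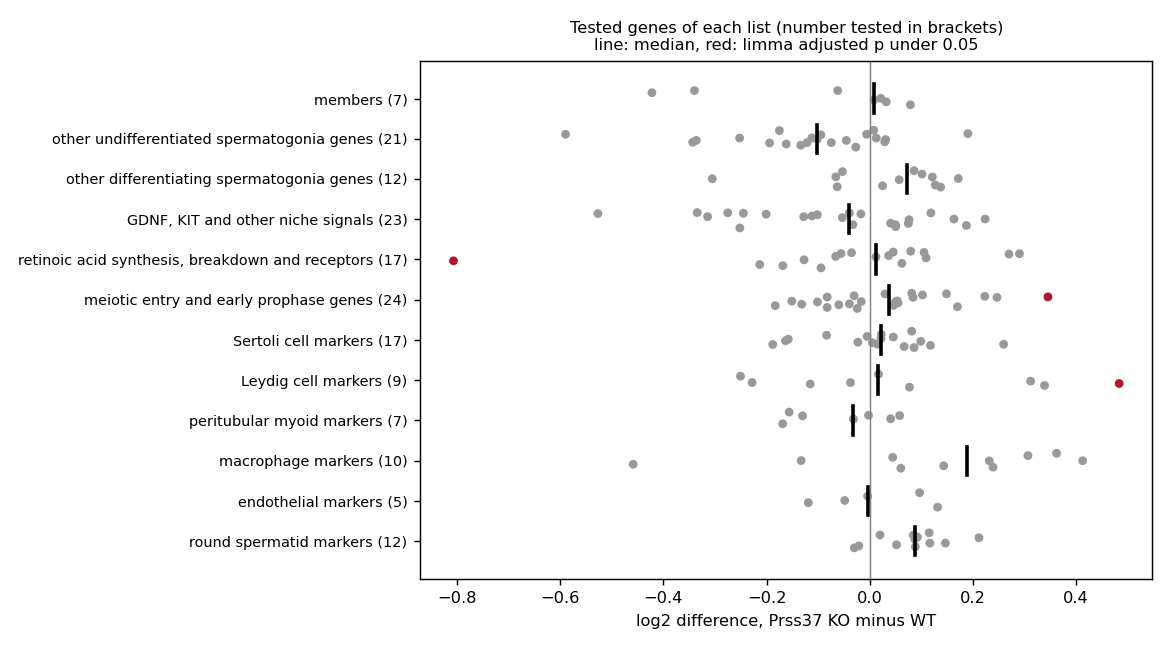
Log2 difference (knockout minus wild type) of every tested gene of the members and of 11 lists, with medians as lines and called genes in red. The called genes are Cyp26a1 (-0.81), Rec8 (0.35) and Ptgds (0.48), and the members include no called gene.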

How the data were processed

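RNA was measured in the testes of 3 knockout and 3 wild-type mice, which the design text counts as mice. The deposited files are scanner outputs of Agilent Feature Extraction. Its version was 10.7.3.1 according to the file headers and 10.7 in the submitters' processing notes. The processed signal is an intensity already background-corrected per the file headers, and flags and positions are other columns used as deposited. A log2 table was also deposited by the authors. Its columns share a median of 7.73 and correlate with the scanner log2 values at 0.99988 to 0.99998, and its normalization is not given in the sources used here.

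Control and flagged spots were left out. The log2 processed signal minus the 75th percentile of the array was averaged over the spots carrying the same probe. Testing required that most unflagged spots of a probe were well above background on all usable arrays of 1 genotype or both (28306 probes), and the brightest probe stood for a gene (18976 genes). Genotypes were compared with limma 3.58.1 (R 4.3.3, two-sided, Benjamini-Hochberg over all genes tested). The fit, but not the steps before it, was tested on simulated data without a slide effect. The number of arrays limits the precision. Probes were named through unversioned RefSeq accessions (27668), a symbol (5589) or a synonym (471), and 7446 kept the file name. Coordinates of probes are on mm9.

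The rule for named genes was all 10 members, Prss37, the called members of each list (up to 4) or, failing any, the 2 of smallest p, and the 3 genes most like Stra8. The members and lists were chosen with earlier results of these data known. The motifs, the promoters shown and the sums without a list's leading gene were chosen after the values were seen. Dhrs3, Lrat, Itga6, Cxcl12, Csf1r, Csf1 and Src were also named after the values were seen. Alternatives covered background correction, normalization, the deposited table, filters, flags, probe choice, variance model, array weights, slide and replicate block, left-out arrays and threshold.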

Additional observations from a re-analysis of the deposited data

How the results depend on the processing

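Between scaling alternatives the median of all genes moved by at most 0.01 on the log2 scale. Genes called higher and lower were 230 and 237 as reported, 691 and 579 after fitting a variance trend robustly, 644 and 529 under array weights, 125 and 150 for averaged probes, 2 and 6 with dim probes kept, 30 and 49 for a slide block, 6 and 21 on slide 1 alone, and 959 and 907 at adjusted p under 0.1. With an array left out they ran from 0 to 442 higher and from 2 to 337 lower. Leaving out knockout replicate 1 gave 12 and 37, knockout replicate 2 gave 0 and 2, knockout replicate 3 gave 5 and 9, and wild-type replicate 1 gave 1 and 5. Members called numbered 1 (Stra8) with normexp, a robustly fitted variance trend, array weights or a threshold of 0.1, and 0 to 1 with an array left out. Stra8 had log2 differences of -0.45 with normexp, -0.42 with a variance trend, -0.46 with array weights and -0.42 at adjusted p under 0.1, past the threshold, and -0.49 to -0.33 with an array left out (adjusted p 0.0459 to 0.185). Dmrtb1 had -0.0067 with normexp, -0.023 with quantile normalization and -0.021 with the deposited log2 table, and -0.014 to 0.033 with an array left out, where it was -0.00043 without knockout replicate 3. Gfra1 had -0.17 on slide 2 alone and -0.032 to 0.086 with an array left out, below 0 on leaving out knockout replicate 1 (-0.031) or wild-type replicate 2 (-0.032). Kit had -0.027 to 0.086 with an array left out, below 0 on leaving out knockout replicate 1 (-0.0059) or wild-type replicate 3 (-0.027). Etv5 had -0.048 on slide 2 alone and 0.37 for averaged probes, beside 0.08 as reported. That average takes in its dim probe, which entered through the knockout arrays alone. None of Dmrtb1, Gfra1, Kit and Etv5 was called under these settings, and the cause was not tested. Prss37 had -0.71 without a filter (adjusted p = 0.0928) and -0.66 on slide 1 alone (0.119), neither past the threshold, -0.80 on slide 2 alone, and -0.76 to -0.66 with an array left out (adjusted p up to 0.132).

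The replicate numbers of the labels did not pair the arrays of replicates 1 and 2, where correlations of same-numbered deviations were -0.028 and -0.027. For replicate 3 the correlation was 0.164. Its knockout and wild-type arrays correlated best with each other, and both were on slide 2. Under the replicate block 0 genes rose and 2 fell, and Prss37 had -0.71 (adjusted p = 0.127), Stra8 -0.42 (0.140) and Cyp26a1 -0.81 (0.0967). Dim probes limit Ret, Nanos3 and the weaker Etv5 probe.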

Other observations

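Markers of the other cell types of the testis gave 1 call, where 2.46% of all tested genes were called. Ptgds, a prostaglandin D synthase that Leydig cells express, had a signal of 49070, 52789 and 50644 in knockout testes, against 39403, 32338 and 37707 in wild-type testes, and rose by 0.48 on the log2 scale (SE 0.08, limma adjusted p = 0.0466). It was the only call among 9 tested Leydig cell markers, whose median was 0.02 (-0.0088 with quantile normalization), and it was lost in 11 alternatives, left-out arrays among them. None of 17 Sertoli cell markers, 7 peritubular myoid markers, 5 endothelial markers, 10 macrophage markers or 12 round spermatid markers was called by limma. At an unadjusted p under 0.05 there were 5 (29.4%), 1 (14.3%), 0, 5 (50%) and 2 (16.7%), in that order, beside 23.9% of all genes. In the macrophage list the median was 0.19 and 8 of 10 genes lay above 0, with Cd163 at 0.36 (adjusted p = 0.0721). Its summed signal was 20122 to 25660 in knockout testes, against 16043 to 20770 in wild-type testes, which overlapped. The round spermatid list had a median of 0.09, or 0.037 with quantile normalization and 0.039 with the deposited log2 table, and a summed signal of 1769580 to 1977690 in knockout testes, against 1777710 to 1863490 in wild-type testes. The Sertoli cell list had a median of 0.02, with Rhox5 at 0.26 (adjusted p = 0.0602) and Fshr at -0.19 (0.119). The part of these cell types in the spermatogonial values was not tested.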
